A study of Caenorhabditis elegans with 2 samples.

Results

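Lysozymes cut the peptidoglycan of bacterial cell walls, and the genes lys-1 to lys-8 of the nematode Caenorhabditis elegans encode enzymes of the protist type, which the worm uses in digestion and in defence against bacteria. These 8 genes were examined in the regions listed from chromatin immunoprecipitation sequencing (ChIP-seq) of whole L1 larvae, the first larval stage. A region was given to a gene where its summit, the position of highest signal, lay in the gene body or within 2000 bp of its transcription start site (TSS). The family was chosen by the signal of these regions: it was proposed with the lists in view, after lys-8 had been seen among the nuclear regions of highest signal. The signals, ranks and numbers of regions below are therefore a description and carry no test. The 8 genes are among 19973 nuclear protein-coding genes of the annotation, and took up 12 of 28183 regions in the list of replicate 1, 9 of 23975 in that of replicate 2, 7 of 11633 in the pooled list and 3 of 328 in the thresholded list.

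The larvae were of strain OP321, which carries unc-119(tm4063) on chromosome III and the insertion wgIs321 with eGFP-tagged tlp-1. Both sexes were pooled and the age was not given. The gene tlp-1 encodes a zinc finger protein known from cell fate in the tail. The labels name no mutation of tlp-1, so whether an untagged product was also present is not given in the sources used here. The 2 libraries, both labelled tlp-1 and made from fragments of 150 to 350 bp, were biological replicates of a single group, so no groups were compared. A control library entered the authors' lists and was not analysed here. The tagged gene had 0 regions by the same rule in each of the 4 lists. The depth behind each signal is unknown, since the lists give regions and not reads. No scale is stated for the signal, and its level is set per list: the median over nuclear thresholded peaks was 19.0 for replicate 1, 30.6 for replicate 2 and 49.1 for the pooled list. Because whole larvae were used, binding in a few cells and weaker binding in many cannot be told apart.

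Several lys genes are expressed in the intestine, where GATA-family zinc finger factors such as ELT-2 act on most genes by binding the sequence TGATAA and its variants. In the worm, lys-1 is known as a gene induced by infection with Serratia marcescens. The genes lys-7 and lys-8 are known as targets of the FOXO factor DAF-16 of the insulin pathway, and lys-7 contributes to resistance to several bacteria. The consensus WGATAR was searched here as the letters GATA with A or T before them and A or G after them, on either strand. A TGATAA on the other strand thus reads TTATCA in the sequences below.

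The reference sequences below show the bases at and around the regions, with each WGATAR site in capitals. All were read from the RefSeq sequence of build WBcel235 (ce11). The first 2 are the 300 bp upstream of genes on the gene's own strand. They are shown for lys-8 (chrII:5585878-5586177, plus strand), which had the highest signal of the family, and for lys-5 (chrIV:11625583-11625882, minus strand), which had more sites in this window than the others and no pooled region. The summit of lys-8 lay 167 bp upstream of the TSS. The stretches at other pooled summits are on the plus strand. They are the 30 bp around the paired sites at the summit of lys-2 (chrV:10280298-10280327), the summit in an intron of lys-1 (chrV:10278446-10278546), and the summits of lys-4 (chrIV:11623175-11623235), lys-6 (chrIV:11628624-11628724) and lys-7 (chrV:3483598-3483698). The lys-4 stretch stops at the start of its transcript.
lys-8: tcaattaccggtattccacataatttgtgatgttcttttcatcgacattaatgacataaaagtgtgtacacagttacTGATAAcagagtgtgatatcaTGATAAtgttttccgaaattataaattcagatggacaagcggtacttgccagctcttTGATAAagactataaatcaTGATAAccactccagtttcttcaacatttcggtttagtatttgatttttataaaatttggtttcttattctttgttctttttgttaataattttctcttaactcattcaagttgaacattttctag
lys-5: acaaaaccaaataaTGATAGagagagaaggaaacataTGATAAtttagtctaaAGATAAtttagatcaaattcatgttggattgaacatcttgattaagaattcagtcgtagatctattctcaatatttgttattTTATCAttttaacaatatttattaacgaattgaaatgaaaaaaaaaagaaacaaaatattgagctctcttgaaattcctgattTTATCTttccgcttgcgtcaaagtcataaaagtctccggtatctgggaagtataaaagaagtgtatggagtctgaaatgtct
lys-2: gcaaaaTGATAAcagaTGATAAcaatttta
lys-1 intron: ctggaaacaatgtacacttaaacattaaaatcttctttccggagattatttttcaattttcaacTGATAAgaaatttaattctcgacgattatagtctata
lys-4: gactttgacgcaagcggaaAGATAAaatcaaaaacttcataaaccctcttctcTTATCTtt
lys-6: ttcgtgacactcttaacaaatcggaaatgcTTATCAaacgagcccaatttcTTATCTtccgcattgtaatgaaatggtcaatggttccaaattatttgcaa
lys-7: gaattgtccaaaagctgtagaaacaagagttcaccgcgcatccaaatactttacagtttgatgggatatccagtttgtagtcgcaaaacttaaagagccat
The printed stretches hold 4 sites upstream of lys-8, all reading TGATAA on the strand of the gene, and 5 upstream of lys-5, on both strands. The lys-7 stretch holds 0.

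Over the lists, the family fell into a high and a low set. By the member rule 8 of the 8 genes had a region in replicate 1, where 70.8% of all nuclear protein-coding genes had one, and 6 of 8 in replicate 2, where 65.5% did. In the pooled list 6 of 8 had a region, against 40.2% of all genes, and lys-3 and lys-5 had none. The authors label the pooled list as peaks and background, so a region in it need not be a site of binding. In the thresholded list, which holds the regions the authors kept by irreproducible discovery rate, 3 of 8 had a peak, namely lys-1, lys-2 and lys-8, against 1.71% of all genes. Among the 4572 genes of 1038 to 1746 bp, the lengths spanned by the family, these shares were 31.8% for the pooled list and 1.47% for the thresholded list. The rule and the choice of genes used these same lists, so nothing is read from the differences.

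**Figure D1:**
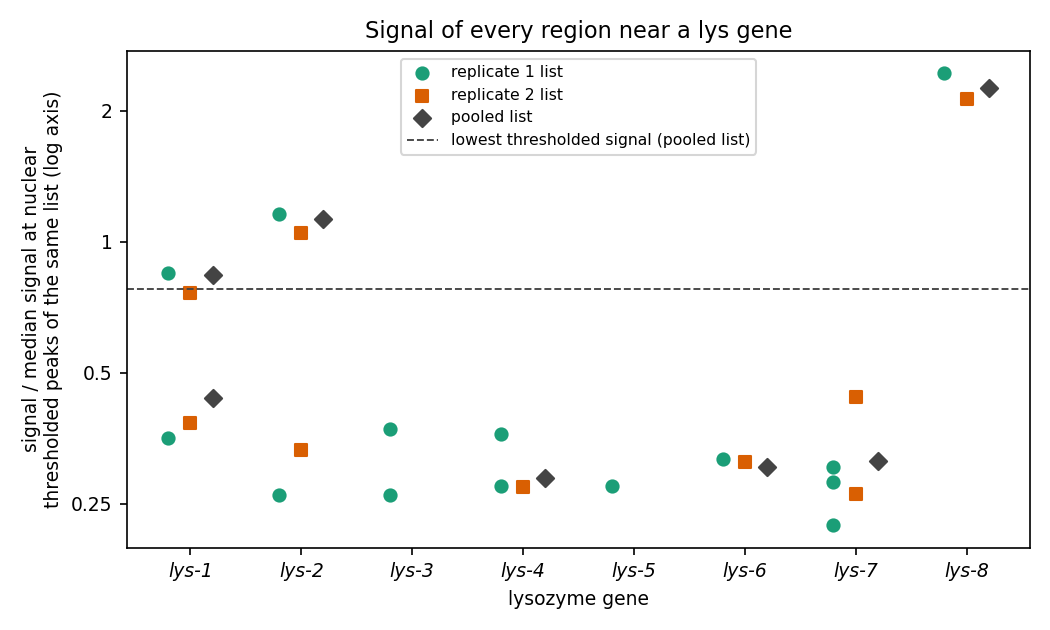
Signal of every region given to each lys gene (horizontal axis), divided by the median signal at nuclear thresholded peaks of the same list (vertical axis, log scale), for replicate 1 (circles), replicate 2 (squares) and the pooled list (diamonds); the dashed line is the lowest thresholded signal of the pooled list. The lys-8 points lie between 2.13 and 2.44, those of the first regions of lys-2 between 1.05 and 1.16, and the points of lys-3 to lys-7 at or below 0.439.

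The highest signal of the family was at lys-8 (WBGene00003097, chromosome II 5586178 to 5587651, plus strand). Its signal was 46.3 in replicate 1, 65.2 in replicate 2 and 111 after pooling, at rank 32 in replicate 1, 32 in replicate 2 and 34 after pooling. Counting nuclear regions alone, it stood at rank 7, 11 and 9 in these lists, so it lay among the leading regions each time. The pooled region ran from 5585851 to 5586170 with its summit at 5586011, and the replicate summits lay 16 bp before it in replicate 1 and 9 bp after it in replicate 2. The summit fell in the promoter of lys-8 and also in an exon of the non-coding RNA gene C17G10.12 (5585978 to 5586124), which lies on the minus strand. The nearest other thresholded summit lay 162603 bp away.

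The second peak belonged by the rule to lys-2 (WBGene00003091, chromosome V 10280307 to 10281474, minus strand), and it lay at the end of the gene and not at its start. Its signal was 22.1 in replicate 1, 32.3 in replicate 2 and 55.4 after pooling, at rank 130, 159 and 117. The pooled region ran from 10280158 to 10280477, and 171 of its 320 bp lay in lys-2. The summit at 10280318 lay in the 3′ untranslated region (UTR), 11 bp inside the 3′ end and 1156 bp downstream of the TSS. Of the 303 nuclear thresholded peaks, 2.31% had their summit in a 3′ UTR. The summit of replicate 1 was 2 bp before the pooled one and that of replicate 2 was 3 bp after it. On its other side the summit was 1262 bp beyond the 3′ end of lys-1, whose TSS was 2414 bp away, outside the window. At the 5′ end of lys-2 there was 1 region in replicate 2, with its summit at 10281447 in the 5′ UTR, a signal of 10.2 and rank 9581, and no pooled region.

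The promoter peak of lys-1 (WBGene00003090, chromosome V 10277904 to 10279056, plus strand) was the lowest of the 3. Its signal was 16.1 in replicate 1, 23.4 in replicate 2 and 41.2 after pooling, at rank 364, 457 and 265. The thresholded list ended at rank 328 of the pooled list with a signal of 38.2, and the first region left out also had 38.2. The peak thus lay a little above that limit in the pooled list, and outside the first 328 regions of each replicate taken alone. The pooled region ran from 10277531 to 10277850 with the summit at 10277691, 213 bp upstream of the TSS. In replicate 1 the summit was 8 bp before it and in replicate 2 it was 69 bp after it, nearer the gene. The TSS of linc-38, a long non-coding RNA gene on the minus strand, lay 338 bp from the summit on the other side, and ncRNA genes annotated as Y22F5A.8 were also within reach.

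A second lys-1 region lay in an intron, from 10278336 to 10278655 with its summit at 10278496, 592 bp downstream of the TSS. Its signal was 6.71 in replicate 1, 11.8 in replicate 2 and 21.5 after pooling. Its ranks were 10806, 5812 and 1979, and it was not in the thresholded list. The summits of both replicates lay within 11 bp of the pooled one. It was the only intronic region of the family in the pooled list.

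The remaining member of this neighbourhood, lys-3 (WBGene00003092, chromosome V 10282100 to 10283544, minus strand), had regions in replicate 1 alone. One had its summit at 10283594, 50 bp upstream of the TSS, with a signal of 7.07 and rank 9315. The other lay at 10283314 in the coding sequence, with a signal of 4.97 and rank 21378, and was also within 2000 bp of the TSS of lys-2. The lowest nuclear signal of that list was 4.2, so the second region was near its lower end.

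The lone gene lys-7 (WBGene00003096, chromosome V 3481432 to 3482600, minus strand) had its pooled region far from its start. The pooled signal was 15.4 at rank 7512, with the summit at 3483648, 1048 bp upstream of the TSS and inside the coding sequence of srbc-33, a gene of a chemoreceptor family. In replicate 2 a region with a summit 2 bp away had a signal of 13.5 and rank 3424. In replicate 1 the overlapping region had its summit 254 bp away, with a signal of 5.75 and rank 15939, so the position was not shared by both replicates. Downstream of the gene, a region of replicate 1 (signal 5.32) and one of replicate 2 (signal 8.06) had summits 1774 and 1913 bp from the TSS and no pooled counterpart by the rule. A last region of replicate 1, 1582 bp upstream, had a signal of 4.24.

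The genes lys-4 (WBGene00003093, chromosome IV 11621429 to 11623174), lys-5 (WBGene00003094, 11624252 to 11625582) and lys-6 (WBGene00003095, 11626910 to 11627947), all on the minus strand, had only weak regions. At lys-4 the signal was 6.88 in replicate 1, 8.37 in replicate 2 and 14.0 after pooling, at rank 10074, 16859 and 10167. The lowest nuclear signal in the pooled list was 13.5, so this region stood near its end. Its pooled summit at 11623185 was 11 bp upstream of the TSS, the nearest to a TSS among the pooled lys summits. At lys-6 the signal was 6.02, 9.54 and 14.9 in the same 3 lists, at rank 14324, 11722 and 8297, with the pooled summit at 11628674, 727 bp upstream. The gene lys-5 had a single region, in replicate 1, with its summit at 11624273 in the 3′ UTR of lys-5 and 1099 bp upstream of lys-4. Its signal was 5.23 and its rank 19451.

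**Figure D2:**
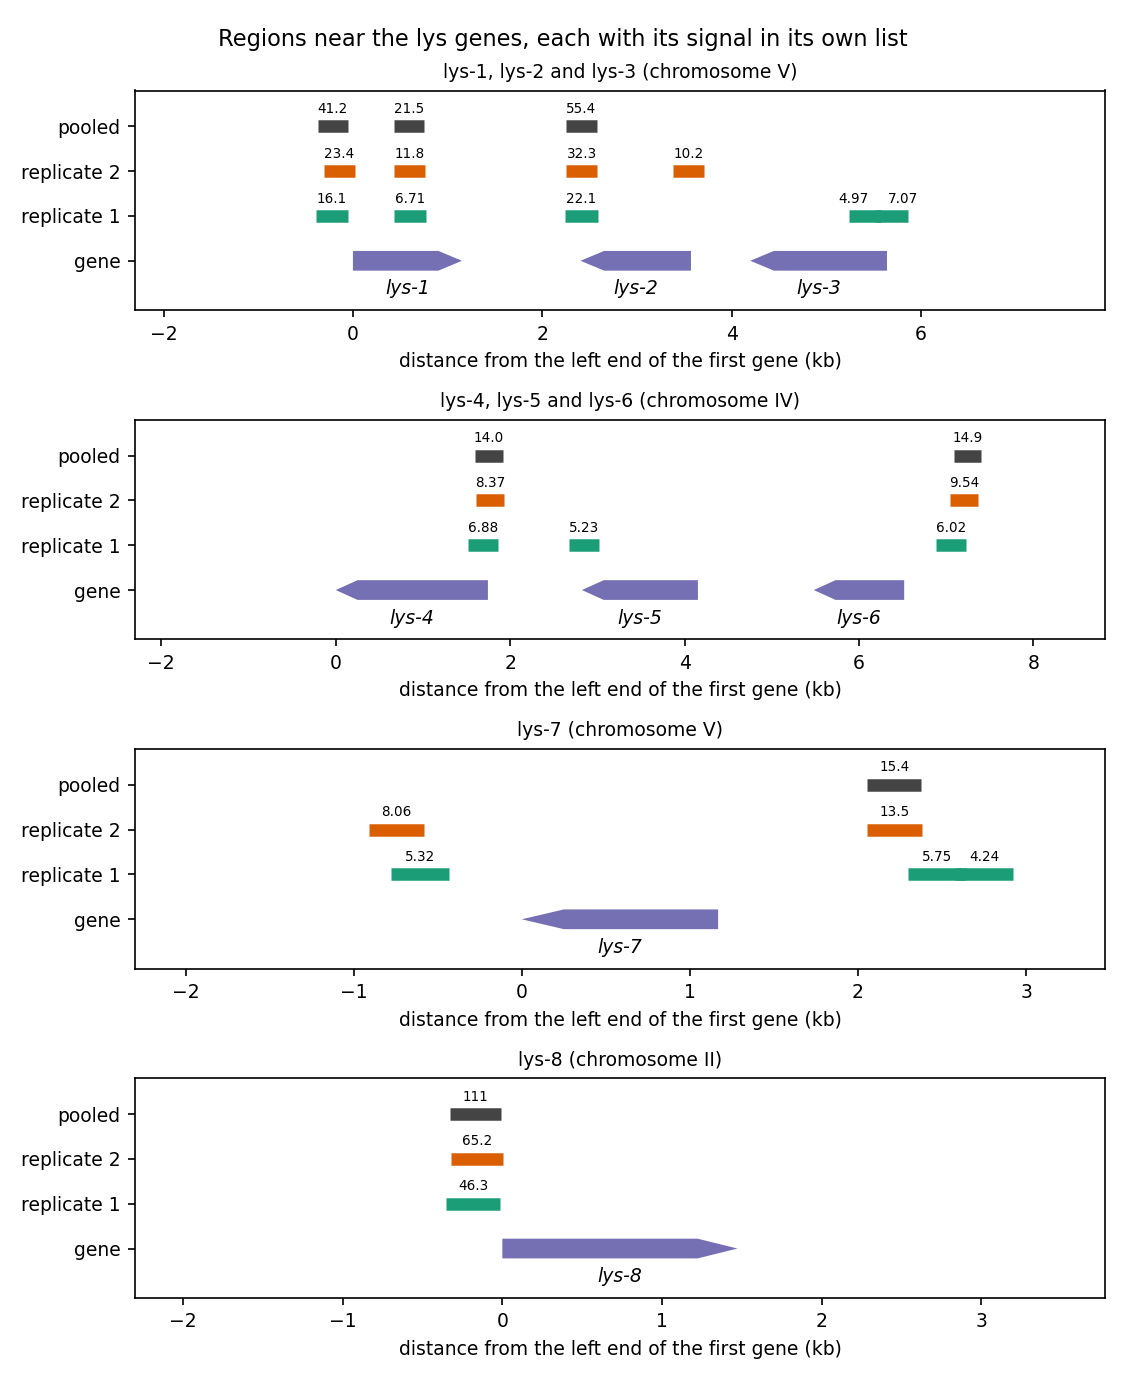
Regions of the replicate lists and the pooled list near the lys genes, drawn to scale along each locus (horizontal axis, kb from the left end of the first gene), with the signal of each region in its own list above it; arrows are the genes and point to their 3′ ends. The pooled signals of 41.2, 21.5 and 55.4 lie between the promoter of lys-1 and the 3′ end of lys-2, whereas lys-8 has a single region at its 5′ end in each list.

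The order of the 3 thresholded peaks was the same in both replicates. The signal at lys-8 was 2.1 times that at lys-2 in replicate 1, 2.02 times in replicate 2 and 2.0 times after pooling. The signal at lys-2 was 1.37, 1.38 and 1.34 times that at lys-1 in these lists. Each pooled value was close to the sum of the replicate values, with a ratio to that sum of 0.995 at lys-8, 1.02 at lys-2 and 1.04 at lys-1; over 298 nuclear thresholded peaks found in both replicates the median was 1.01, and the central 90% ran from 0.889 to 1.1. Replicate 2 was higher than replicate 1 by 1.41 times at lys-8, 1.46 times at lys-2 and 1.45 times at lys-1, against a median of 1.58 and a range of 0.863 to 4.12 over the central 90% of the same peaks. No such order was shared by the weak regions. In replicate 1 lys-4 stood above lys-6 and lys-6 above lys-7, and in replicate 2 this order was reversed. With 2 replicates, no error is attached to these ratios beyond the values themselves.

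All 7 pooled lys regions were overlapped by at least 1 bp by a region of replicate 1, as were 70.5% of all nuclear pooled regions, and all 7 by a region of replicate 2, as were 81.4%. The pooled list was made from both replicates, so these overlaps are not independent of it. Summits within 50 bp of the pooled summit in both replicates were found for 3 of the 7, namely lys-8, lys-2 and the lys-1 intron, against 22.8% of all nuclear pooled regions. At nuclear thresholded peaks the median distance between the replicate and the pooled summit was 13.0 bp in replicate 1 and 7.0 bp in replicate 2. The 69 bp seen at the lys-1 promoter in replicate 2 was larger than the 54.9 bp below which 95% of those distances fell.

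**Figure D3:**
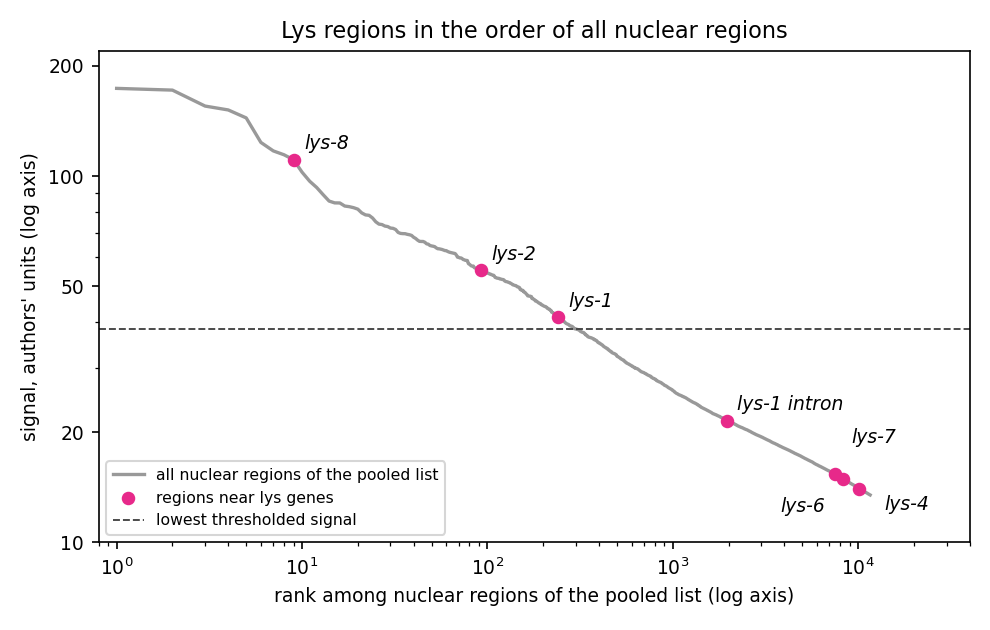
Signal (vertical axis, the authors' units, log scale) of the nuclear regions of the pooled list by rank (horizontal axis, log scale), with the lys regions as points and the lowest thresholded signal as a dashed line. The points for lys-8 (111), lys-2 (55.4) and lys-1 (41.2) lie above the line, and the other 4 lie between 14.0 and 21.5.

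Neighbouring members differed by neighbourhood. The genes lys-1, lys-2 and lys-3 span 5641 bp of chromosome V with 0 other annotated genes between their ends. The first pair converges, with 1250 bp between the 3′ ends, and lys-2 and lys-3 follow each other on the minus strand 625 bp apart. This span with 2000 bp to either side held 5 regions in replicate 1, 4 in replicate 2, 3 in the pooled list and 2 in the thresholded list. The thresholded summits of lys-1 and lys-2 lay 2627 bp apart, and 9.24% of nuclear thresholded peaks had another within 3000 bp. The genes lys-4, lys-5 and lys-6 span 6519 bp of chromosome IV in 1 direction, with gaps of 1077 and 1327 bp and 1 other annotated gene, the piRNA gene 21ur-8714, inside lys-4. This span with the same margins held 3 regions in replicate 1, 3 in replicate 2, 2 in the pooled list and 0 in the thresholded list. The region of highest signal in replicate 2 (12.1, summit at 11619485) lay 3689 bp downstream of the lys-4 TSS. It was given to no lys gene by the rule. The genes lys-7 and lys-8 stand alone, and of these lys-8 held the peak of highest signal.

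The window of 2000 bp left out regions close by. Just outside it were a region of replicate 1 at 2020 bp upstream of lys-1 (signal 7.3) and the 5′ region of lys-2 in replicate 2, at 2097 bp from the TSS of lys-3. Just inside were a region of replicate 2 at 1913 bp from the TSS of lys-7 (signal 8.06) and that of replicate 1 at 1840 bp from the TSS of lys-2 (signal 4.97).

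Sites of the GATA type lay near most of the pooled summits. A WGATAR site stood no more than 50 bp from the summit in 6 of the 7 pooled lys regions, against 32.0% of all nuclear pooled regions, and in 3 of the 3 thresholded ones, against 88.8% of nuclear thresholded peaks. The share of 88.8% means that a site at a thresholded lys peak was the usual case. Of the weak pooled regions, lys-4 and lys-6 had 2 sites each and lys-7 had 0, while 23.8% of the pooled regions of rank 7512 to 10167, the band these 3 span, had a site. At the replicate 2 summits lys-4 and lys-6 also had 2 sites each, but at the overlapping replicate 1 summits they had 0. In the replicate lists 5 of 12 lys regions had a site in replicate 1, against 7037 of its 28158 nuclear regions (25%), and 7 of 9 in replicate 2, against 26.9%.

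The thresholded peaks differed in the number and direction of their sites. The lys-8 summit had 3 sites within 50 bp, with centres 33 bp before and 24 and 43 bp after it, and 1 more 54 bp before it, all reading TGATAA on the plus strand. The lys-2 summit had 2, both TGATAA on the plus strand, 12 and 2 bp before it and thus in close tandem, as the printed stretch shows. The lys-1 promoter summit had 1, TGATAA on the minus strand, 29 bp before it, with 2 more at 67 and 86 bp after it. The replicate 2 summit, 69 bp after the pooled one, lay 1.5 bp from the centre of the first of these. At least 2 sites stood at 2 of the 3 lys peaks and at 66.0% of all nuclear thresholded peaks, and TGATAA at 3 of the 3 and at 78.5%. The longer element CTTATCA, which contains a TGATAA site on the other strand, was in 53.5% of nuclear thresholded peaks and in 0 of the 3 at lys genes. Among the weaker regions it was found at lys-6 and in the lys-1 intron.

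**Figure D4:**
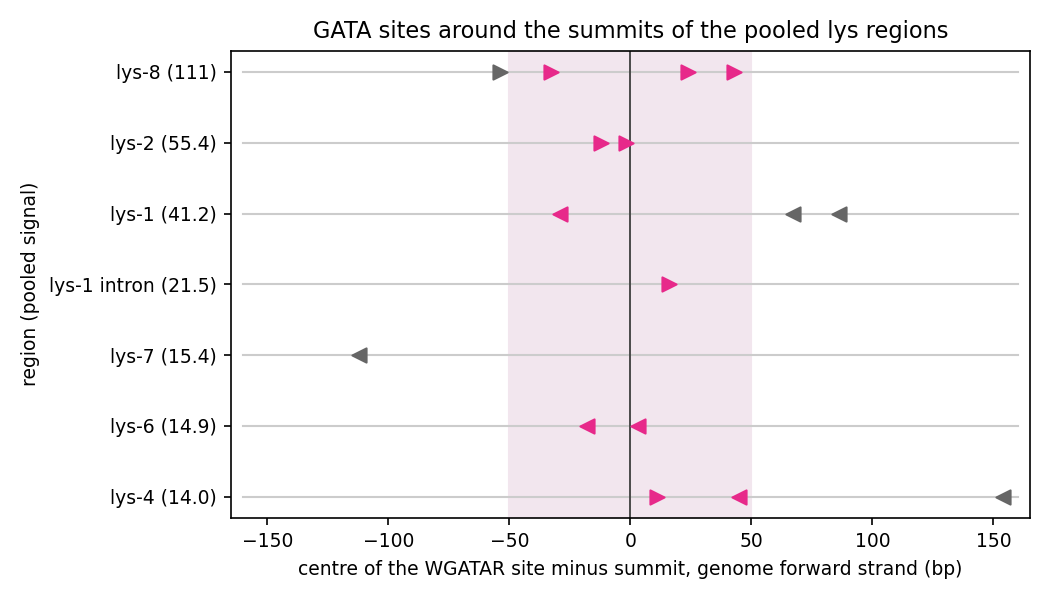
Centres of WGATAR sites relative to the summit of each pooled lys region (horizontal axis, bp on the forward strand), with regions in order of pooled signal from the top; triangles point right for the plus strand and left for the minus strand, and the shaded band is 50 bp to either side. The lys-8 row holds 4 sites, all pointing right, the lys-2 row holds 2 beside the summit, and the lys-7 row has none in the band.

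Most of the family, 6 of 8 genes, had 4 or more WGATAR sites in the upstream sequence, and 3 of these 6 had no pooled summit there. In the 500 bp upstream of the TSS, lys-8 had 6 sites, lys-1, lys-4 and lys-5 had 5 each, lys-2 and lys-6 had 4 each, and lys-3 and lys-7 had 2 each. Over all nuclear protein-coding genes the median was 1 and the mean 1.37, and 71.4% of these windows held a site. Windows with 4 or more sites made up 6.61% of all genes, and 0.656% of genes had as many as lys-8 or more. The 2 sites of lys-3 and lys-7 were reached by 38.6% of genes. Of the 102 genes with a thresholded summit in this window, 56.9% held 4 or more. The GC content of the lys windows ran from 28.4% at lys-7 to 36.6% at lys-3, with a median of 33.8% over all genes. In 300 bp windows, of which 54.9% held a site over all genes, lys-5 had 5 sites (0.411% of genes had as many or more), lys-2 and lys-8 had 4 (1.94%), lys-1 and lys-4 had 3 (7.4%), lys-6 and lys-7 had 2 (22.3%) and lys-3 had 1. The place of lys-5 depended on the length: 5.12% of genes had as many sites in 250 bp, 2.15% in 500 bp and 14.8% in 1000 bp. The lys-7 window overlapped srbc-33.

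**Figure D5:**
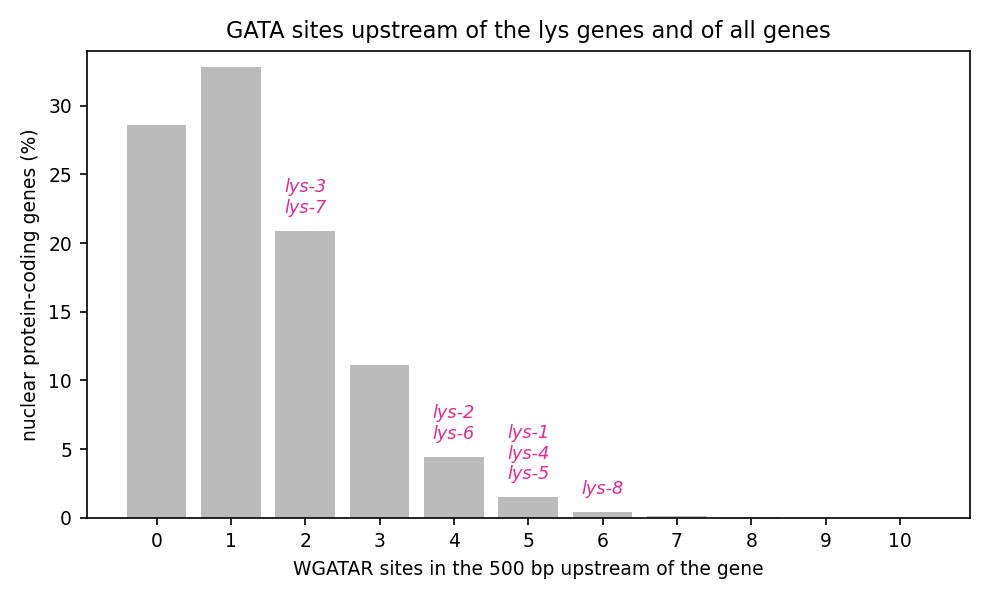
Share of nuclear protein-coding genes (vertical axis, percent) by the number of WGATAR sites in the 500 bp upstream of the gene (horizontal axis), with the lys genes named above their number. All 8 stand at 2 or more, and lys-8 stands at 6, a number found in 0.461% of genes.

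By coding sequence the family fell into 2 sets, lys-4 to lys-6 and the other 5 genes. Of the 28 pairs, 16 were more alike in coding sequence than upstream and 12 were not, all 12 of them between the sets. Coding identity was 86.0% between lys-5 and lys-6, 83.6% between lys-4 and lys-6, 80.5% between lys-4 and lys-5, 78.6% between lys-7 and lys-8 and 69.7% between lys-1 and lys-2. Within the sets the lowest pair stood at 55.4%, and between them identity ran from 43.4% to 46.8%. The coding sequences were 642 to 645 bp long at lys-4 to lys-6 and 837 to 903 bp at the others. Pairs between the sets were thus of unlike length, whereas the upstream windows were all of 1 length. The part of length in the lower identity between the sets was not tested. Over the 500 bp upstream, identity ran from 44.4% to 52.1%, with lys-7 and lys-8 at the upper end. No identity between windows of other genes stands beside these values, so nothing is read from them. The pooled signals of lys-7 and lys-8 were 15.4 and 111, but the lys-7 summit lay 1048 bp upstream, outside the window compared. One block stood apart within these 500 bp windows: lys-4 and lys-5 shared 30 identical bases, while the longest run shared by any other pair was 8 to 12 bases. At lys-4 the block lies at the pooled summit (chrIV:11623175-11623204, minus strand). It ends there 1 bp before the TSS, which is the edge of the window compared. Whether the match runs on into the transcript was not examined, so 30 bases is a lower limit. At lys-5 it lies 58 to 87 bp upstream (chrIV:11625640-11625669, minus strand), where no list has a region. It was noticed after the sequences were printed, and reads as follows on the strand of the genes, with its WGATAR site in capitals.
lys-4 and lys-5: tgattTTATCTttccgcttgcgtcaaagtc

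Repeated sequence could bear on which reads are placed at these genes, and neither the read length nor the treatment of reads with several positions is given in the sources used here. Of the stretches of 30 bp in the gene and the 500 bp upstream, 69.6% occurred once in the genome at lys-6, 74.1% at lys-5 and 96.7% at lys-4, against 99.8% at lys-2 and 100% at the other 4 genes. Within the pooled regions themselves the share was 97.6% at lys-4 and 100% at the other 6. The part of this in the weak signal at lys-4, lys-5 and lys-6 was not tested.

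Other genes of the same biological role were looked up by the member rule. Of the 8 other lysozyme genes, lys-9, lys-10 and the invertebrate-type ilys-1 to ilys-6, 6 had a region in replicate 1, 5 in replicate 2, 4 in the pooled list and 0 in the thresholded list. Of the 23 genes for saposin-like proteins, spp-1 to spp-23, some of which are known to act on bacterial membranes, 19, 16, 12 and 2 did. Of the 6 antibacterial factor genes abf-1 to abf-6, which encode defensin-like peptides, 5, 1, 2 and 0 did. Some neighbouring genes were counted through the same region, so these are counts of genes and not of distinct regions. The saposin-like genes with a thresholded peak were spp-14 and spp-17. At spp-14 the pooled signal was 55.2 at rank 118, next in rank to lys-2, with the summit 174 bp upstream of the TSS and 0 WGATAR sites within 50 bp. The replicate 2 summit of spp-14, 158 bp upstream, had 1 site within 50 bp, and that of replicate 1 had 0. At spp-17 the pooled signal was 41.5 at rank 260, close to that of lys-1, with the summit 1266 bp upstream and 3 sites. The shares of all genes given above, 40.2% for the pooled list and 1.71% for the thresholded list, are the background for these counts.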

How the data were processed

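Whole L1 larvae were profiled by ChIP-seq against eGFP-tagged tlp-1 in 2 biological replicates, per the labels. Regions were read from lists the authors deposited on ce11, 1 for each replicate, 1 pooled and 1 thresholded by irreproducible discovery rate, with those on ce10 as an alternative. The deposited signal of each region was made by the authors against a control and has no stated scale. The deposited -log10 q was used as given; it was 1.345 at the pooled peaks of lys-8 and lys-2, the highest value of that list, shared by 233 regions, and 1.261 at lys-1. The other pooled lys regions had 0.023 to 0.265, with 0.023 at lys-4, 0.037 at lys-6 and 0.044 at lys-7. Such values do not set these regions apart from the background that the pooled list also holds. The aligner, the peak caller and the threshold are not given in the sources used here. Reads were not used here, so depth is unknown and no interval is given.

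Summits were taken as the start plus the summit offset plus 1 and ranked by signal within each list. The thresholded list was checked to hold the 328 regions of highest signal of the pooled list. Genes and TSS came from Ensembl release 115, sequence from the RefSeq genome of the same build. Identities are from global alignments. Named genes were the 8 members, genes sharing a pooled lys region by the same rule, and members of 3 related lists with a thresholded region; other members of those lists are given as counts, apart from the first and last names of each list. The members and lists were chosen with earlier results of these data known. Because 1 group was profiled, no test was made. Counts at the main settings stand beside the share of all genes or regions. The gene assignment and the motif search were run on simulated data, with 0 of 60000 assignments and 0 of 200 planted motifs wrong. The expected assignments came from the same rule written again, and the motifs were planted in sequence of C and G alone. This checks only that the rule and the search ran as written, and not the reading of regions, genes or TSS. Alternatives were other windows, overlap rules, ranks, motif settings, builds and each replicate alone, and 2 upstream lengths added after seeing the data. Computation used Python 3.11.15, numpy 2.4.6, pandas 2.3.3, biopython 1.88 and matplotlib 3.10.9. The sequence of the lys-1 promoter region is not reported here.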

Additional observations from a re-analysis of the deposited data

How the results depend on the processing

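The number of lys genes with a pooled region (6) ran from 4 with a window of 500 bp to 8 with one of 5000 bp or without replicate 2. In the list of replicate 1, 70.8% of all genes had a region. The share of all genes was worked out at 2000 bp alone, so nothing is read from the counts at other windows. Genes with a thresholded peak (3) ran from 2 to 4: lys-1 was outside the first 328 regions without replicate 1 (rank 457) and without replicate 2 (rank 364), and lys-3 joined at 5000 bp, where it takes up the lys-2 peak. The 7 distinct pooled regions became 11 with the window of 5000 bp, and 9 to 12 when a replicate was left out. Regions with a GATA site (6 of 7) became 2 of 7 when CTTATCA alone was searched, and were 7 of 9 without replicate 1 and 5 of 12 without replicate 2, where the number of regions changes too. The 7 regions found in both replicates became 3 when summits had to lie within 50 bp. Of these changes, the causes were not tested beyond what each setting does by construction. In all, 37 of 41 alternatives of these counts, read without their totals, stayed within 1.5 times the value reported. Some of these could not change a count. Each lys gene has 1 TSS and is at most 1746 bp long, so its body lies within 2000 bp of that TSS. Leaving out the gene body, or using only the 5′ end of the gene, thus gave the same counts by construction. The 6 lys genes with 4 or more upstream sites became 2 in 250 bp and 8 in 1000 bp, alternatives chosen after seeing the data. Over all genes, 4 or more sites were held by 1.13% in 250 bp, 6.61% in 500 bp and 28.0% in 1000 bp. On ce10 the highest signals per gene differed by at most 0.00313%. No paired analysis was possible because a single group was profiled. Unknown depth limits all statements on weak regions. The pooled signals of lys-4, lys-6 and lys-7 were 14.0 to 15.4, below the list's median of 16.4. A weak region of this list is not shown to be bound, and a gene with no region is not shown to be unbound.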
